A study of Mus musculus with 6 samples.

Results

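Transcripts of TGF-beta, BMP and activin signaling were examined in 6 RNA-Seq libraries of cultured sympathetic neurons, with 3 libraries of Slit2th and 3 of Slit2fl/fl mice. The genes were chosen by name from their known place in the pathway and numbered 44 of the 20173 genes in the count table. All 44 were found, and 34 of them passed a filter on low counts and were tested.

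Both groups carried the floxed Slit2 alleles, and the Slit2th mice in addition carried Th-Cre, in which the tyrosine hydroxylase promoter drives the recombinase, so that Slit2 is deleted in cells that use or have used that promoter. Sympathetic chains of 3-week-old male mice were digested and kept for 4 to 5 days in a B27 neural medium before total RNA was taken, and no other treatment was given. The labels name the tissue as sympathetic ganglion and the cell type as neuron, whereas the dissection protocol speaks of dorsal root neurons. The labels give neither a strain nor whether each library came from its own mouse, so the p-values measure only the spread between these libraries, which may be technical.

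Ligands of this family are secreted dimers that bring together type I and type II serine/threonine kinase receptors on the cell surface. TGF-beta and activin receptors mainly phosphorylate Smad2 and Smad3, and BMP receptors mainly Smad1, Smad5 and Smad9, after which these join Smad4 and enter the nucleus. The Id genes are direct targets of the BMP arm, and Smad6, Smad7 and the extracellular antagonists damp the signal. In the peripheral nervous system, BMPs take part in specifying sympathetic neurons from the neural crest, and TGF-beta acts on Schwann cells and fibroblasts after nerve injury.

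The libraries held 1255939 to 3155406 counts. Levels are given as CPM, counts scaled to a library total of 1000000 after edgeR's TMM normalization, and 3 counts of a gene, taken as the floor of detection, correspond to between 0.961 and 2.65 CPM; this floor covers counting error only. Slit2 was 44.5, 55.1 and 43.8 CPM in Slit2fl/fl replicates 1 to 3 and 15.0, 11.5 and 15.2 CPM in Slit2th replicates 1 to 3, so that every library matched its label. Replicate 1 of each group stood apart, with a Pearson correlation across genes of 0.841 to 0.868 with the other libraries of its group, against 0.937 and 0.965 between replicates 2 and 3. Defining sympathetic markers were absent or low. Th, Scg2 and Chga had no count in any library, and the neuron list, led by Tubb3, summed to between 199 and 593 CPM. The list of Schwann cell and satellite glia markers summed to between 6172 and 20400 CPM. Fibroblast markers, led by Col1a2, summed to between 2378 and 4615 CPM.

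**Figure D1:**
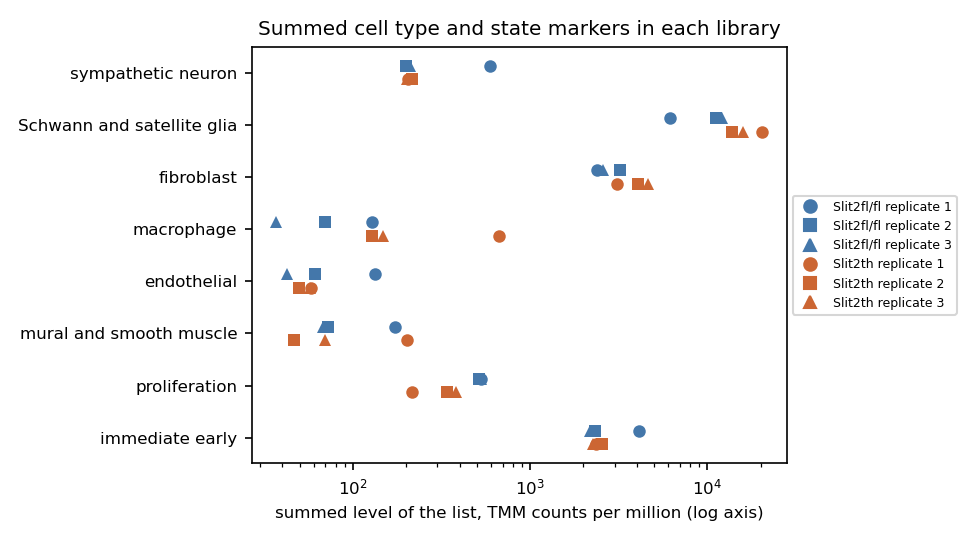
Summed level of 8 marker lists in each library, in TMM-normalized CPM on a log axis, with 1 point for each library. The glia sums lie far above the neuron sums in all 6 libraries, and the proliferation sums of the Slit2th libraries (216 to 383) lie below those of the Slit2fl/fl libraries (514 to 527).

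Among the ligands, Tgfb2 was the main TGF-beta transcript, and its level was higher in each Slit2th library than in any Slit2fl/fl library. Tgfb2 encodes TGF-beta 2, a ligand that needs the co-receptor encoded by Tgfbr3 for strong binding to its type II receptor. Its level was 52.5, 73.2 and 78.5 CPM in Slit2fl/fl replicates 1 to 3, from 164, 113 and 138 counts. In the Slit2th replicates it was 88.2, 102 and 121 CPM, from 100, 214 and 215 counts. The lowest Slit2th library thus lay above the highest Slit2fl/fl library. The log2 fold change of Slit2th over Slit2fl/fl was 0.61 (SE 0.34, 95% interval -0.15 to 1.38, unadjusted p = 0.103, adjusted p = 0.512, edgeR's quasi-likelihood test). A two-sided exact permutation test gave p = 0.10, the smallest that 3 libraries against 3 allow. In bulk RNA, more cells of a type that makes the transcript and more RNA in each such cell cannot be told apart.

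Tgfb2 lies on chromosome 1 (GRCm38, minus strand, 186622792 to 186705989), where exons of Gm29491 are annotated across from its own on the other strand. Whether the counting used strand is not given in the sources used here, so reads of the overlap cannot be assigned to either gene. The 250 bases before its RefSeq start (GRCm38.p6, chr1:186705990-186706239, minus strand) are shown because Tgfb2 is one of 3 genes of the family whose Slit2th libraries all lay above. Capitals mark CAGAC, the core of the element that Smad3 and Smad4 bind, found 2 times.

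Tgfb2: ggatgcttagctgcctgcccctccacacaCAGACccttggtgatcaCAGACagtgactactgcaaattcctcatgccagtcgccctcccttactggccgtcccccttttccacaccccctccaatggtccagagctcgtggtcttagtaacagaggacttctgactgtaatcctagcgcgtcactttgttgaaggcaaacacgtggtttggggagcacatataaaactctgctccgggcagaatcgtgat

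The other TGF-beta ligands were lower, and Tgfb1 was near the floor of detection. Tgfb1, the ligand most often studied in fibrosis and immunity, was 0.640, 3.24 and 5.12 CPM in Slit2fl/fl against 1.76, 0.954 and 1.69 CPM in Slit2th. Tgfb3 was 4.48, 8.43 and 10.8 CPM in Slit2fl/fl against 0.882, 8.11 and 9.03 CPM in Slit2th. The libraries of the groups overlapped for both, and the log2 fold changes were -0.97 (SE 0.91) and -0.32 (SE 0.72). Per kilobase of merged exons, which allows levels to be set against each other between genes, Tgfb2 had 11.8 CPM in Slit2fl/fl against 17.9 CPM in Slit2th, against 0.595 and 0.292 CPM for Tgfb1 and 2.34 and 1.78 CPM for Tgfb3.

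BMP transcripts were scarce. Of the 8 ligands of the BMP, GDF and activin branches, 5 were tested, and none of them separated the groups. Gdf11, a ligand that signals through activin receptors, had the highest level per length of these, with 39.4, 20.1 and 30.7 CPM in Slit2fl/fl (123, 31 and 54 counts) and 46.8, 18.1 and 20.9 CPM in Slit2th (53, 38 and 37 counts). Its highest and its lowest library were both Slit2th, and the log2 fold change was -0.09 (SE 0.48, edgeR adjusted p = 0.947, exact permutation p = 0.90). Inhba, which encodes the subunit of activin A, was 7.68, 15.6 and 23.9 CPM in Slit2fl/fl against 7.94, 20.5 and 22.0 CPM in Slit2th. Inhbb, the subunit of activin B, was 2.56, 11.7 and 4.55 CPM in Slit2fl/fl against 2.65, 5.72 and 14.1 CPM in Slit2th. Both activin subunits overlapped between the groups, at log2 fold changes of 0.13 (SE 0.56) and 0.33 (SE 0.76). Bmp4, a BMP ligand that patterns the embryo and induces bone, lay between 0.569 and 3.39 CPM and had 24 counts in all. Bmp7 lay between 0 and 4.80 CPM, with 25 counts in all. Bmp2, Bmp6 and Gdf10 had 9, 2 and 1 counts over all 6 libraries and were not tested. At this depth, a difference in these BMP ligands was not detectable.

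Receptors were the group in which most fold changes had 1 sign, although none passed the adjusted threshold. Of 12 receptors and co-receptors, 9 were tested, and the log2 fold change was positive in 8 of them and negative in 1, with a median of 0.44, beside 5805 positive and 6347 negative among all genes tested; Bmpr2 turned negative with offsets corrected for GC content or length, and Tgfbr1, Bmpr2, Acvr2b and Bmpr1a changed sign when libraries were left out. In 2 of the 9 (22.2%), Tgfbr2 and Acvr1, every Slit2th library lay above every Slit2fl/fl library, as it did in 8.74% of all tested genes. Summed over the 12 transcripts, the receptors reached 686.5, 839 and 853 CPM in Slit2fl/fl against 782, 890.3 and 938 CPM in Slit2th, and these sums overlapped.

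Tgfbr2 encodes the type II receptor that binds TGF-beta and activates the type I receptor. It was 74.0, 69.3 and 86.4 CPM in Slit2fl/fl, from 231, 107 and 152 counts, and 94.4, 109 and 128 CPM in Slit2th, from 107, 229 and 226 counts. All 3 Slit2th libraries were above all 3 Slit2fl/fl libraries, replicate 1 included. The log2 fold change was 0.53 (SE 0.32, 95% interval -0.19 to 1.25, unadjusted p = 0.133, adjusted p = 0.537, edgeR's quasi-likelihood test), and the exact permutation p was 0.10. The gene lies on the minus strand of chromosome 9 from 116084293 to 116175360 and overlaps no other annotated gene. Its upstream window (GRCm38.p6, chr9:116175364-116175613, minus strand) is shown for the same reason as that of Tgfb2, with CAGAC, found 1 time, in capitals.

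Tgfbr2: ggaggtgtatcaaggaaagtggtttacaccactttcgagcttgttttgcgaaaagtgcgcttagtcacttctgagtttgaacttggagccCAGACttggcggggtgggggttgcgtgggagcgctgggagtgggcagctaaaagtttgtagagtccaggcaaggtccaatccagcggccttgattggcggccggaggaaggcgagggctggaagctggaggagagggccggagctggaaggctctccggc

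CAGAC, or GTCTG on the other strand, was searched in the 250 bases before the RefSeq starts of the 32 members with an entry in the promoter table. It was present in 42.5% of their 40 windows and in 42.2% of all 32851 windows. GGCGCC, the GC-rich Smad element used by the BMP arm, was in 27.5% of the members' windows and 9.59% of all windows. The members' windows had a GC content of 43.2% to 85.6%, and that of all windows was not compared. Overlapping windows of Ltbp4 that held a match were each counted. Id3 held 2 CAGAC matches, and Acvr1 held neither motif. A match is only a description of these letters. Tgfb3, Tgfbr3, Bmp1, Bmp2, Bmp7, Acvrl1, Smad2, Smad4, Smad7, Id1, Nog and Bambi had no entry.

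Acvr1 encodes ALK2, a type I receptor for BMPs. Its level was 11.8, 44.7 and 35.8 CPM in Slit2fl/fl replicates 1 to 3 (37, 69 and 63 counts). In Slit2th it was 45.9, 56.8 and 60.4 CPM (52, 119 and 107 counts). The groups were separated by a narrow margin, and Slit2fl/fl replicate 1 was far below the other libraries. The log2 fold change was 0.83 (SE 0.50, 95% interval -0.29 to 1.95, adjusted p = 0.534, edgeR's quasi-likelihood test; exact permutation p = 0.10), and 0.43 without Slit2fl/fl replicate 1. Acvr1 lies on the minus strand of chromosome 2 from 58388644 to 58567157.

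The most abundant receptor transcript was Bmpr1a, which encodes the BMP type I receptor ALK3. It stood at 381, 318 and 288 CPM in Slit2fl/fl (1191, 490 and 506 counts) and 223, 315 and 309 CPM in Slit2th (253, 661 and 547 counts). Apart from replicate 1, which was the highest library in one group and the lowest in the other, the values lay close together. The log2 fold change was -0.22 (SE 0.32, 95% interval -0.94 to 0.50, edgeR adjusted p = 0.791, exact permutation p = 0.40), the only negative one among the tested receptors. Bmpr1a had 51.8 CPM per kilobase in Slit2fl/fl and 44.5 in Slit2th, whereas Tgfbr1, the TGF-beta type I receptor, had 16.03 and 18.5, and Tgfbr2 had 9.35 and 13.5.

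The remaining receptors overlapped between the groups. Bmpr2, the BMP type II receptor, was 83.9, 220.4 and 211 CPM in Slit2fl/fl against 128, 222 and 229.7 CPM in Slit2th, low in both replicates 1. Tgfbr1 was 61.5, 90.1 and 163 CPM in Slit2fl/fl against 186, 85.4 and 90.9 CPM in Slit2th. Tgfbr3, the co-receptor betaglycan, was 44.8, 69.3 and 44.4 CPM in Slit2fl/fl against 64.4, 63.0 and 87.5 CPM in Slit2th. The log2 fold changes of these 3 were 0.17 (SE 0.44), 0.20 (SE 0.47) and 0.44 (SE 0.36). The activin receptors Acvr2a, Acvr2b and Acvr1b were lower, from 2.27 to 21.2 CPM, with log2 fold changes of 0.45 (SE 0.47), 0.39 (SE 0.62) and 0.59 (SE 0.56). Bmpr1b, Acvrl1 and Eng had 1, 4 and 8 counts in all. The last 2, ALK1 and endoglin, are receptors known mainly from endothelial cells. The 12 endothelial markers summed to between 42.6 and 133 CPM, led by Egfl7 (23.3 to 98.0 CPM); Kdr, Tek and Cldn5 were near 0, whereas Pecam1 and Cdh5 had 51 and 64 counts in all.

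**Figure D2:**
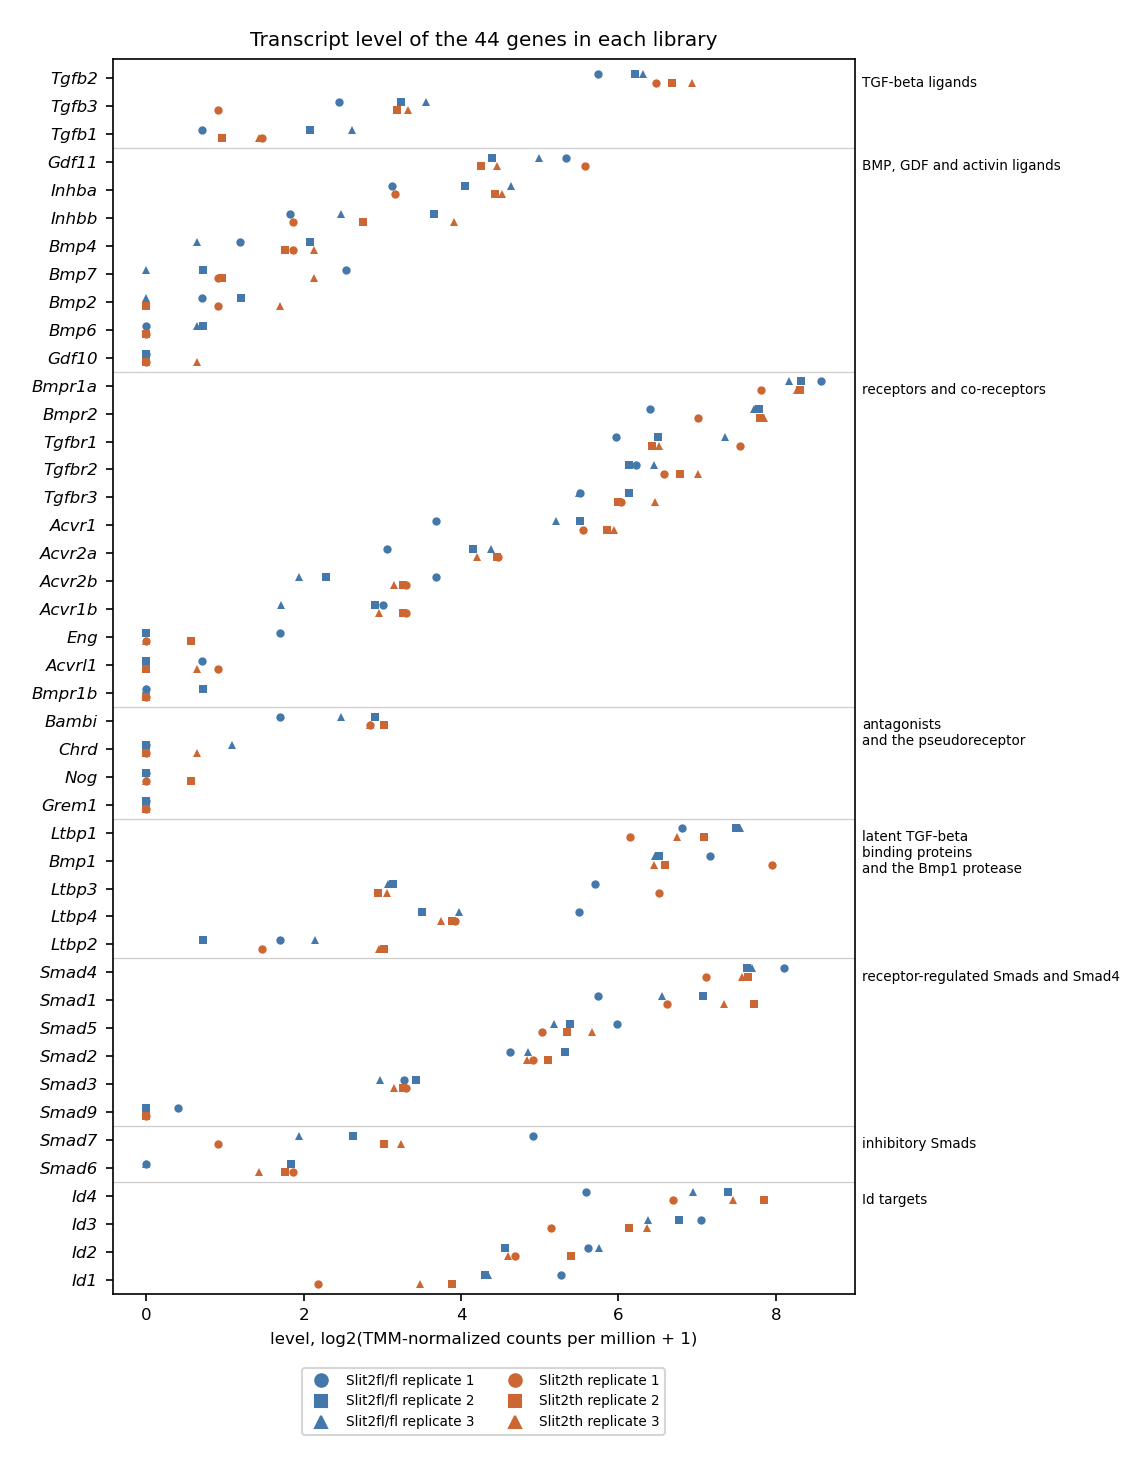
Level of each of the 44 transcripts in each library, as log2 of TMM-normalized CPM plus 1, grouped by role, with 1 point for each library. Bmpr1a, Smad4, Bmp1 and Id4 reach furthest to the right, while Grem1, Nog, Chrd, Gdf10, Smad9 and Bmpr1b lie at or near 0.

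The classical BMP antagonists Grem1, Nog and Chrd were almost absent. Grem1 had no count in any library, which allows at most 0.961 to 2.65 CPM, and Nog and Chrd had 1 and 3 counts in all. All 3 bind BMP ligands and keep them from their receptors. Bambi, a receptor-like protein without a kinase domain that blocks TGF-beta and BMP receptors, was the only one tested. It was 2.24, 6.48 and 4.55 CPM in Slit2fl/fl (7, 10 and 8 counts) and 6.18, 7.16 and 6.21 CPM in Slit2th (7, 15 and 11 counts). The groups overlapped, since Slit2fl/fl replicate 2 was above 2 of the Slit2th libraries (log2 fold change 0.60, SE 0.58, edgeR adjusted p = 0.683, exact permutation p = 0.30).

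Latent TGF-beta binding proteins tether the inactive ligand to the matrix, and Bmp1 is a metalloprotease that cuts procollagen, latent binding proteins and the antagonist chordin. Of these 5 transcripts, 3 had a positive and 2 a negative fold change, and none separated the groups. Ltbp1 was 111, 179.5 and 185 CPM in Slit2fl/fl against 69.7, 136 and 107 CPM in Slit2th. The highest Slit2th library exceeded the lowest Slit2fl/fl library, which was replicate 1, and the log2 fold change was -0.61 (SE 0.38, edgeR adjusted p = 0.55). Without Slit2fl/fl replicate 1, or without replicate 1 of both groups, Ltbp1 was the one member lower at an unadjusted p under 0.05, at -0.81 and -0.60. Of all genes tested, 511 of 11772 and 1182 of 11473 were lower in these fits. Bmp1, the highest per length over all 6 libraries, although Ltbp1 was higher in Slit2fl/fl (14.8 against 12.1 CPM per kilobase), was 143, 90.7 and 87.6 CPM in Slit2fl/fl (447, 140 and 154 counts) and 246, 95.9 and 86.9 CPM in Slit2th (279, 201 and 154 counts). Its fold change of 0.41 on the log2 scale (SE 0.47, edgeR adjusted p = 0.727, exact permutation p = 0.70) rested on the high Slit2th replicate 1, and without that library it was -0.23.

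Ltbp3 showed the split between replicate 1 and the other libraries most plainly. It was 51.2, 7.78 and 7.39 CPM in Slit2fl/fl against 90.9, 6.68 and 7.34 CPM in Slit2th. Both replicates 1 were high and the other 4 libraries were alike, so the log2 fold change of 0.60 had an SE of 1.08. Ltbp4 was 44.2, 10.4 and 14.8 CPM in Slit2fl/fl against 14.1, 13.8 and 12.4 CPM in Slit2th, high in Slit2fl/fl replicate 1 alone (log2 fold change -0.80, SE 0.57). Ltbp2 was low, between 0.648 and 7.16 CPM, with a log2 fold change of 1.31 (SE 0.78).

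None of the 5 tested Smad transducers separated the groups. Smad4, the common partner of both arms, had the highest level per length of the whole family, 60.9 CPM per kilobase in Slit2fl/fl and 47.2 in Slit2th. It stood at 274, 197 and 208 CPM in Slit2fl/fl (856, 304 and 365 counts) and 138, 199 and 188 CPM in Slit2th (156, 418 and 334 counts). As for Bmpr1a, replicate 1 was the highest library of Slit2fl/fl and the lowest of Slit2th, and the other 4 libraries lay between 188 and 208 CPM. The log2 fold change was -0.37 (SE 0.33, 95% interval -1.11 to 0.37, edgeR adjusted p = 0.655, exact permutation p = 0.20), and -0.07 without replicate 1 of both groups.

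Smad1, a transducer of the BMP arm, was 52.5, 134 and 93.2 CPM in Slit2fl/fl against 97.1, 211 and 161 CPM in Slit2th. In Slit2th, 2 of the 3 libraries were above all of Slit2fl/fl, the groups overlapped through replicate 1, and the log2 fold change was 0.75 (SE 0.45, 95% interval -0.26 to 1.76, unadjusted p = 0.127, adjusted p = 0.534, edgeR's quasi-likelihood test). In 4 of 17 alternatives, such as without replicate 1 of both groups (0.70), its unadjusted p was under 0.05, and its adjusted p over the alternatives (edgeR or DESeq2) was 0.137 to 0.82. Smad5, which acts beside Smad1, was between 31.8 and 62.4 CPM, with a log2 fold change of -0.20 (SE 0.39). Smad2 and Smad3, the transducers of the TGF-beta and activin arm, had log2 fold changes of 0.00 (SE 0.37, 95% interval -0.83 to 0.84) and 0.01 (SE 0.45, 95% interval -1.01 to 1.02). Both were so near 0 that their sign turned with upper-quartile scaling. Smad9 had 1 count in all.

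Inhibitory Smads are induced by the pathway and act back on its receptors. Smad7 was 29.1, 5.18 and 2.84 CPM in Slit2fl/fl (91, 8 and 5 counts) and 0.882, 7.16 and 8.47 CPM in Slit2th (1, 15 and 15 counts). Its log2 fold change of -1.15 (SE 0.93, edgeR adjusted p = 0.626, exact permutation p = 0.60) came with replicates 1 at opposite ends, and without both of them it was 0.95. Smad6 had 15 counts in all, with 0 in Slit2fl/fl replicates 1 and 3, and a log2 fold change of 1.55 (SE 1.25). This ran from 0.70 without replicate 1 of both groups to 5.18 (unadjusted p = 0.00808, edgeR) without Slit2fl/fl replicate 2, the only Slit2fl/fl library with counts, so that the last value is set by the fit and is no bound.

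**Figure D3:**
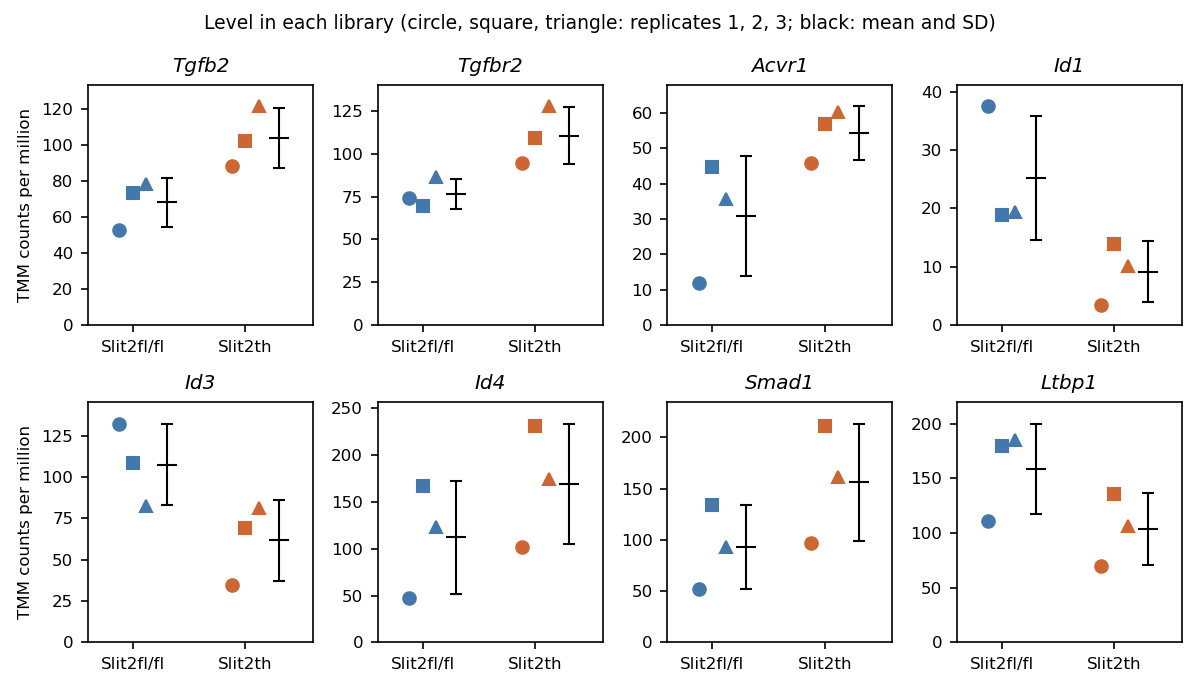
Level of 8 transcripts in each library in TMM-normalized CPM, with axes from 0; circles, squares and triangles are replicates 1, 2 and 3, and black bars give the group mean and SD (n = 3). The libraries of the groups do not overlap for Tgfb2, Tgfbr2, Acvr1, Id1 and Id3, and they overlap for Id4, Smad1 and Ltbp1.

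The Id targets split. Id1 and Id3 were lower in every Slit2th library than in any Slit2fl/fl library, whereas Id4 had a positive fold change and Id2 overlapped. Id proteins lack a DNA-binding domain and hold back basic helix-loop-helix factors, and they are commonly high in dividing and undifferentiated cells.

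Id1 was 37.5, 18.8 and 19.3 CPM in Slit2fl/fl replicates 1 to 3, from 117, 29 and 34 counts. In Slit2th replicates 1 to 3 it was 3.53, 13.8 and 10.2 CPM, from 4, 29 and 18 counts. The Slit2th libraries lay below, and replicate 1 was the highest Slit2fl/fl and the lowest Slit2th library. The means were 25.2 ± 10.6 and 9.18 ± 5.22 CPM (SD, n = 3 each), and the log2 fold change was -1.42 (SE 0.55, 95% interval -2.67 to -0.17, unadjusted p = 0.0298, adjusted p = 0.435, edgeR's quasi-likelihood test; exact permutation p = 0.10). Id1 was the one member with an unadjusted p under 0.05, and its p ranked 833 among the 12152 genes tested. Without replicate 1 of both groups the log2 fold change was -0.67 (unadjusted p = 0.121, edgeR), and with offsets corrected for GC content it was -0.95 (unadjusted p = 0.091). The gene lies on the plus strand of chromosome 2 from 152736251 to 152737410.

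Id3 was 132, 108 and 82.4 CPM in Slit2fl/fl, from 412, 167 and 145 counts, and 34.4, 69.2 and 81.3 CPM in Slit2th, from 39, 145 and 144 counts. The highest Slit2th library was only just below the lowest Slit2fl/fl library. The log2 fold change was -0.80 (SE 0.41, 95% interval -1.72 to 0.12, unadjusted p = 0.0817, adjusted p = 0.494, edgeR's quasi-likelihood test; exact permutation p = 0.10), and -0.36 with GC-corrected offsets and without replicate 1 of both groups alike. Id3 lies on the plus strand of chromosome 4 from 136143497 to 136145755, and had 60.0 CPM per kilobase in Slit2fl/fl and 34.4 in Slit2th, the highest of the Id genes in Slit2fl/fl.

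Id2 was 48.0, 22.7 and 52.9 CPM in Slit2fl/fl against 24.7, 41.0 and 23.1 CPM in Slit2th (log2 fold change -0.47, SE 0.45). Id4 was 47.1, 167 and 123 CPM in Slit2fl/fl against 102, 231 and 174 CPM in Slit2th (log2 fold change 0.60, SE 0.50). For Id4, as for Smad1, replicate 1 was the lowest and replicate 2 the highest library of each group, and the groups overlapped. Reads of Id4 may include those of genes annotated on the other strand.

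Other measures also differed between the groups or between single libraries. The 14 proliferation markers summed to 527, 514 and 527 CPM in Slit2fl/fl against 216, 339 and 383 CPM in Slit2th. Of these, 5 (35.7%) were lower at an unadjusted p under 0.05, where 6.78% of all tested genes were. In 7 (50%), every Slit2th library lay below every Slit2fl/fl library, as it did in 9.72% of all tested genes. The most abundant by mean, Top2a, lay between 55.6 and 151 CPM. The deviation of each gene's level from its mean over the libraries correlated with its GC content at a rank correlation of 0.55 in Slit2fl/fl replicate 1, against -0.328 to -0.0318 in the other 5 libraries, and the GC content of Id1 and Id3 transcripts is 55.0% and 56.2% against a median of 49.2% over the genes tested. Their part in the levels of Id1 and Id3 was not tested. The glia sums were 6172, 11140 and 12100 CPM in Slit2fl/fl against 20400, 13760 and 15860 CPM in Slit2th. Like Tgfb2, Tgfbr2 and Acvr1, they were higher in every Slit2th library than in any Slit2fl/fl library. Within Slit2th, however, replicate 1 had the highest glia sum and the lowest level of each of these genes. Fibroblast sums ran from 2378 to 3219 CPM in Slit2fl/fl and from 3098 to 4615 CPM in Slit2th, and overlapped. Macrophage sums ran from 37.0 to 128 CPM in Slit2fl/fl and from 128 to 670 CPM in Slit2th. The part of these sums in the levels of Tgfb2, Tgfbr2 and Acvr1 was not tested either.

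Over the family as a whole, the counts were near or below those over all genes. In the comparison of all 12152 tested genes, 0% passed an adjusted p under 0.05 with edgeR's quasi-likelihood test (1309 at an unadjusted p under 0.05), and 0 of the 34 members did. At an unadjusted p under 0.05, 1 of 34 members (2.94%) was lower and 0 were higher, where 6.78% of all tested genes were lower and 3.99% higher. Every Slit2th library lay above every Slit2fl/fl library for 3 of 34 members (8.82%; 8.74% of all tested genes) and below for 2 (5.88%; 9.72% of all tested genes). The shares of members were thus at or below those of all genes. The median log2 fold change of the 34 was 0.19, with 21 positive and 13 negative, beside -0.05 over all tested genes. DESeq2, which gave 0.437% of the genes with an adjusted p as passing, passed 0 of the 23 members that had one. Without replicate 1 of both groups, 3.29% of the genes tested passed with edgeR and 0 of 33 members.

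**Figure D4:**
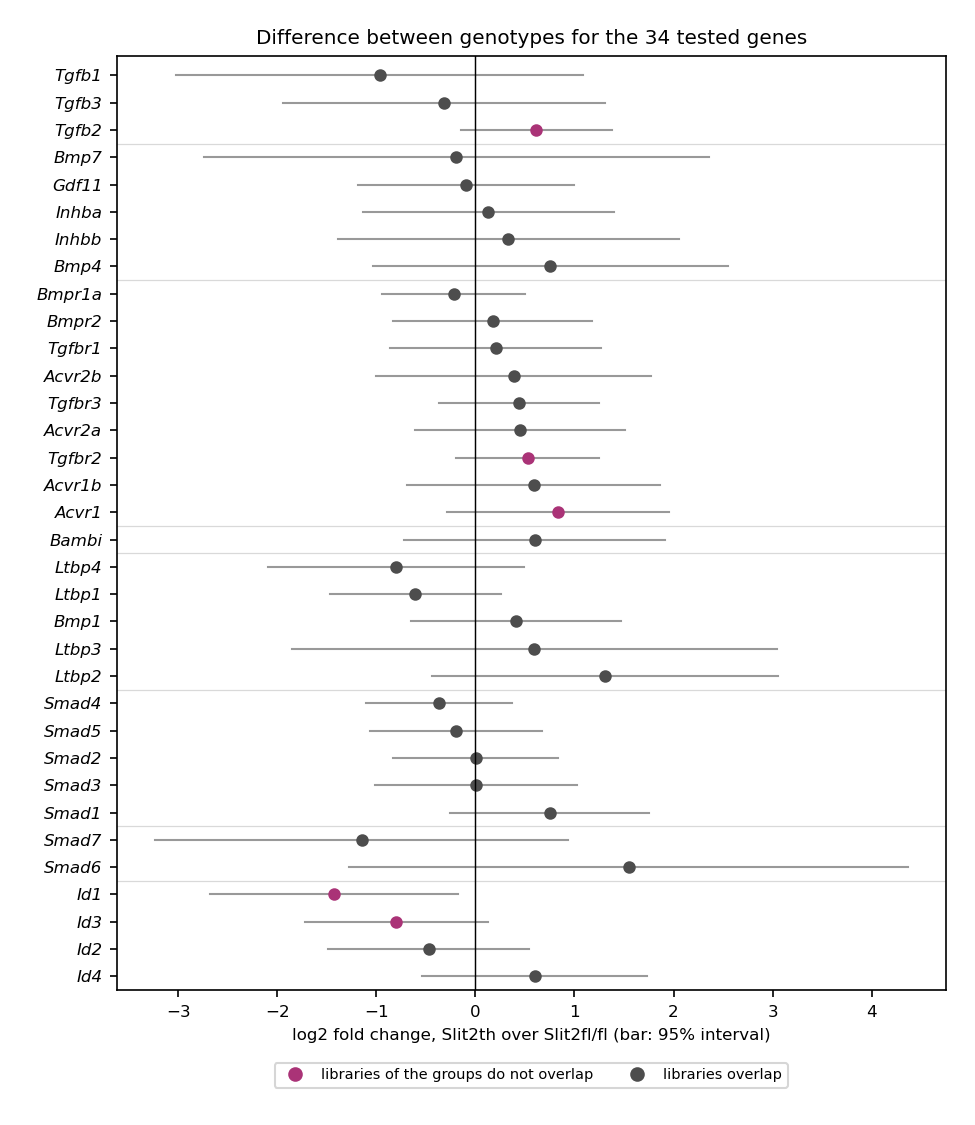
Log2 fold change of Slit2th over Slit2fl/fl with its 95% interval for the 34 tested members, in the order of their roles; purple points mark genes whose libraries do not overlap between the groups. All intervals but that of Id1 (-2.67 to -0.17) include 0.

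The fold changes of Tgfb2 and Tgfbr2 moved least with the processing. Over 17 alternatives, that of Tgfb2 ran from 0.46 to 0.72 and that of Tgfbr2 from 0.42 to 0.67, and without replicate 1 of both groups they were 0.54 (unadjusted p = 0.0278, edgeR) and 0.59 (unadjusted p = 0.0202, edgeR). Smad1 ran from 0.46 to 1.11, Acvr1 from 0.43 to 1.21, Id3 from -1.04 to -0.36 and Id1 from -1.82 to -0.67. None of the 6 reversed its direction under any of the 17, and none reached an adjusted p under 0.05.

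**Figure D5:**
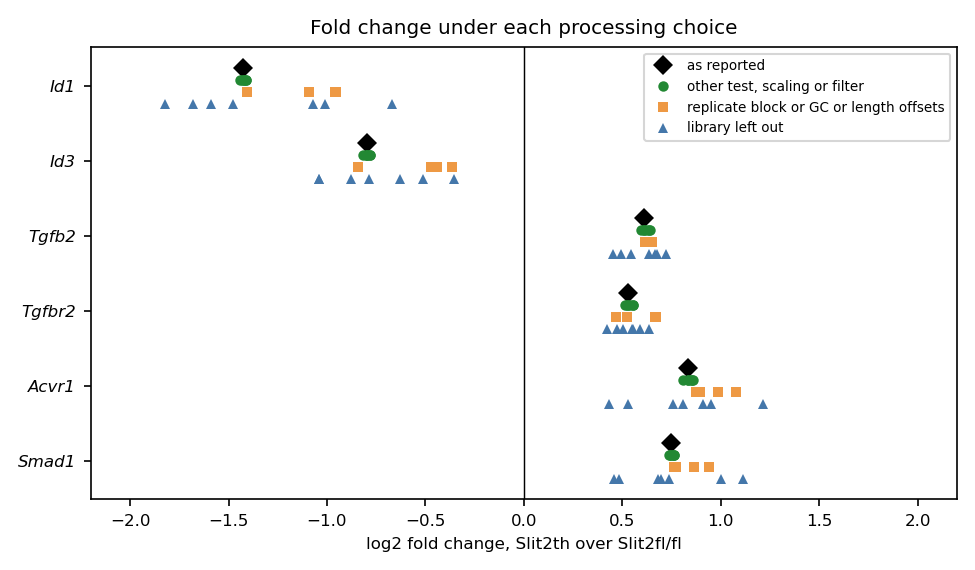
Log2 fold change of Slit2th over Slit2fl/fl for 6 members under the choices reported here and under 17 alternatives, with 1 point for each. Id1 and Id3 stay to the left of 0 and Tgfb2, Tgfbr2, Acvr1 and Smad1 to the right.

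The other genes of the pathway, from a list of further ligands, receptors, modulators and targets, were tested in the same fit. Of 69 in the table, 44 passed the filter, with 27 positive and 17 negative log2 fold changes and a median of 0.15. At an unadjusted p under 0.05, 2 of the 44 (4.55%) were higher and 1 (2.27%) was lower, where 3.99% and 6.78% of all tested genes were. The groups did not overlap for 6 above (13.6%; 8.74% of all tested genes) and 5 below (11.4%; 9.72% of all tested genes). Ccn2, a matricellular protein gene known to respond to TGF-beta, was 7.04, 16.2 and 8.53 CPM in Slit2fl/fl against 30.0, 37.2 and 40.6 CPM in Slit2th. All Slit2th libraries lay far above, and the log2 fold change was 1.78 (SE 0.45, unadjusted p = 0.00318, adjusted p = 0.422, edgeR). Leaving out both replicates 1 gave 1.65 and an adjusted p of 0.0315 (edgeR). Hey1, which encodes a transcriptional repressor, also lay above in all Slit2th libraries but was near the floor of detection. It had 6, 3 and 3 counts in Slit2fl/fl (1.92, 1.94 and 1.71 CPM). In Slit2th it had 5, 9 and 10 counts (4.41, 4.29 and 5.64 CPM). The log2 fold change of Hey1 was 1.33 (SE 0.62, unadjusted p = 0.0584, adjusted p = 0.473, edgeR). Tgfbi and Pmepa1, from the same group of targets, overlapped at -0.19 and 0.15.

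Fstl1, a secreted glycoprotein that binds BMP-family ligands and that the study followed up, was 53.8, 133 and 192 CPM in Slit2fl/fl against 1124, 169.8 and 289.5 CPM in Slit2th. Slit2th replicate 1 stood far above the rest and Slit2th replicate 2 fell within the Slit2fl/fl range. The log2 fold change was 2.07 (SE 0.73, unadjusted p = 0.020, adjusted p = 0.422, edgeR), or 0.48 without replicate 1 of both groups. Apart from these libraries, the paper reported higher FSTL1 in Slit2th sympathetic neurons by real-time PCR, immunoblotting and ELISA. Tab1, a partner of the kinase TAK1 (Map3k7), was 31.7, 1.94 and 4.55 CPM in Slit2fl/fl against 0.882, 3.82 and 2.82 CPM in Slit2th. Its log2 fold change of -2.29 (SE 1.004, unadjusted p = 0.0482, edgeR) came from Slit2fl/fl replicate 1, the only high library.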

How the data were processed

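Per the labels and the paper's methods, the authors made TruSeq libraries, used HISAT2 to place the reads on mm10, and deposited the read counts of each gene as whole numbers without normalization; the submitters' processing notes name GRCm39 instead. The counting program, strand setting and annotation release are not given in the sources used here. Positions, merged exon lengths, GC content and overlaps come from GENCODE M21 (GRCm38), which held 20166 of the 20173 gene identifiers. Upstream sequences are RefSeq's on GRCm38.p6.

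Libraries were grouped by their genotype label. In R 4.3.3, genes that reached 1 CPM in 3 or more libraries were compared with edgeR 4.0.16. Settings were TMM, the quasi-likelihood test, no covariate and Benjamini-Hochberg adjustment over all 12152 genes, at a threshold of 0.05. The same functions were run on simulated counts with large known fold changes and no library set apart as replicate 1 was here. Recovery of smaller fold changes was not tested. The biological coefficient of variation was 50.4%. The level of a single gene was also compared on log2(CPM + 1) by an exact permutation test (two-sided), whose smallest p is 0.10 here. The members, the marker and pathway lists and the tests were chosen with earlier results of these data known. Given in full are members with an unadjusted p under 0.05, those whose groups did not overlap, and the member of each role with the highest level per length; other pathway genes are named by an unadjusted p under 0.05, and Hey1, Tgfbi and Pmepa1 after their values were seen, as were the members shown beside these in the plots. Pathway genes on the list but outside the table were not analysed here, and some genes are not reported here. Alternatives were RLE and upper-quartile scaling, other filters, DESeq2 1.42.0, edgeR's newer fit, a replicate block, GC- and length-corrected offsets, a pseudocount of 0.5 and leaving libraries out. With 1255939 to 3155406 counts a library, a gene with few counts has a wide interval.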

Additional observations from a re-analysis of the deposited data

How the results depend on the processing

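Under 17 alternatives, 0 members reached an adjusted p under 0.05, and 18 of 34 members kept the sign of their log2 fold change in every alternative that tested them (16 of the 17 for Tgfb1, Bmp4, Ltbp2 and Smad6), Id1, Id3, Tgfb2, Tgfbr2, Acvr1 and Smad1 among them. The count of members lower at an unadjusted p under 0.05 (1, Id1) was 0 with GC-corrected offsets, 0 with the replicate block and GC-corrected offsets together and 0 with length-corrected offsets, and 0 to 1 with libraries left out: it was 0 without Slit2th replicate 1 or Slit2th replicate 3, and the 1 was Ltbp1 in place of Id1 without Slit2fl/fl replicate 1 and without replicate 1 of both groups. The count of members higher (0) was 1 with GC-corrected offsets (Tgfbr2), beside 594 of 12146 genes. It was 3 with the replicate block and GC-corrected offsets (Tgfbr2, Acvr1 and Smad1), beside 735 of 12146 genes. With libraries left out it was 0 to 4. The 4 (Tgfb2, Tgfbr2, Ltbp2 and Smad1) came without replicate 1 of both groups, where 817 of 11473 genes were higher and 1182 lower. Genes lower numbered 725 with GC-corrected offsets, 757 with the replicate block as well and 702 with length-corrected offsets. Over all genes, the adjusted count of 0 was 7 without a filter on low counts, 34 with DESeq2 and 0 to 377 with libraries left out, the 377 without replicate 1 of both groups. The count of all genes higher at an unadjusted p was 758 without the filter, 735 with the replicate block and GC-corrected offsets and 287 to 817 with libraries left out, and that of all genes lower was 422 to 1182 with libraries left out. The causes were not tested.

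Whether the replicate numbers in the labels pair the libraries could not be decided, since deviations from a mean of 3 libraries are not independent. Same-numbered libraries deviated from their group means with positive correlations of 0.29, 0.242 and 0.0795. Across different numbers, the correlations ran from -0.309 to 0.252. Slit2fl/fl replicate 2 correlated about equally with Slit2th replicate 3 (0.252) and with its own number. With the replicate block, 2 of 34 members were higher (Acvr1 and Smad1) and 1 lower (Id1) at an unadjusted p under 0.05. Of the 12152 genes tested, 693 were higher and 921 lower there, 1614 in all against 1309 without the block. After adjustment 0 genes passed, and Bmp7 turned to 0.38.

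The sign turned somewhere for 16 of the 34 members, and for Tab1, a pathway gene that is not a member. With GC-corrected offsets, the log2 fold changes were 0.51 for Bmp7, -0.131 for Bmpr2, 0.136 for Gdf11, -0.0217 for Inhba and -0.0396 for Smad2; with the replicate block as well they were 0.796, -0.135, 0.0801, -0.0640 and -0.0299. With length-corrected offsets they were -0.0908 for Bmpr2, 0.0081 for Gdf11 and -0.0728 for Smad2. With upper-quartile factors Smad2 was -0.0259 and Smad3 -0.0190, and with a CPM of 1 required in all 6 libraries they were -0.0021 and -0.0023. With libraries left out, the ranges were -0.0250 to 1.31 for Acvr2b, -0.23 to 0.69 for Bmp1, -0.81 to 0.049 for Bmp7, -0.38 to 0.0301 for Bmpr1a, -0.16 to 0.40 for Bmpr2, -0.63 to 0.16 for Gdf11, -0.21 to 0.50 for Inhba, -0.48 to 1.14 for Inhbb, -1.69 to 2.18 for Ltbp3, -1.14 to 0.10 for Ltbp4, -0.15 to 0.23 for Smad2, -0.18 to 0.12 for Smad3, -0.43 to 0.21 for Smad5, -1.71 to 0.95 for Smad7, -2.79 to 0.00898 for Tab1, -0.68 to 0.14 for Tgfb3 and -0.53 to 0.64 for Tgfbr1. A pseudocount of 0.5 changed the exact permutation p of 0 of 34 members.

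Limits of depth bear on the rarest members: BMP ligands other than Bmp4 and Bmp7 had 9 counts or fewer in all, and the antagonists Grem1, Nog and Chrd 3 or fewer, at library totals of 1255939 to 3155406.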

Other observations

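Some further genes of the pathway, named after their values were seen, did not overlap between the groups. Itgb8, a subunit of the integrin that activates latent TGF-beta, was 314, 981 and 792 CPM in Slit2fl/fl against 1076, 1255 and 1315 CPM in Slit2th (log2 fold change 0.81, SE 0.44). Slit2fl/fl replicate 1 was far below the rest. Twsg1, which encodes a BMP-binding modulator, and Skil, which encodes a co-repressor of Smads, also lay above in Slit2th, at log2 fold changes of 0.82 (SE 0.47) and 0.60 (SE 0.40). Nedd4l, an E3 ubiquitin ligase gene, was 156, 127 and 171 CPM in Slit2fl/fl against 76.8, 114 and 107 CPM in Slit2th, and Map3k7, the gene of the kinase TAK1, was 79.4, 85.5 and 72.2 CPM in Slit2fl/fl against 53.0, 66.8 and 71.1 CPM in Slit2th. Fkbp1a, whose product binds type I receptors, Htra1 and Tgfbrap1 lay below as well, at log2 fold changes of -0.32 (SE 0.31), -0.64 (SE 0.42) and -0.66 (SE 0.44). With edgeR's quasi-likelihood test, the adjusted p of Itgb8 was 0.508 and that of Nedd4l 0.508.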
